A study of Mus musculus with 6 samples.

Results

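The transcription factors described here direct epidermal fate and terminal differentiation, and they were chosen as a named list of 9 genes (Trp63, Klf4, Grhl1, Grhl3, Gata3, Ovol1, Prdm1, Cebpa and Elf5) out of 21370 genes with a named probe. Their 10 probes, of 55681 on the array, were found through the gene symbol of each probe's RefSeq accession. Epidermis of mouse embryos at embryonic day 16 (strain given in the labels as 129SvEx:C57BL/6) was compared on 6 arrays in 2 colors, each holding RNA of 1 knockout sample in one dye and RNA of a wild-type littermate sample in the other. The 3 knockouts were Sox4 cKO, Sox11 cKO and the dcKO that lacks both genes, with 2 arrays each. Per the study's methods, floxed alleles were deleted by Cre under the keratin 14 promoter, which acts in keratinocytes, and the founding stock also carried a Sox12 null allele whose state in these embryos is not given in the sources used here. The Cre line crossed in was FVB/N, and whether littermate RNA was shared between arrays is also not given. Dorsal epidermis was peeled after dispase digestion, so each sample was a bulk tissue. The dyes were swapped between replicates, with Cy5 on the knockout RNA of every first replicate and Cy3 on that of every second. The comparison asks which of these regulators change when SOX4, SOX11 or both are missing.

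The epidermis is renewed by basal cells that stop dividing, move upward and build the cornified barrier. TRP63 (p63) maintains the basal fate, while KLF4, GRHL3, PRDM1 (Blimp1), GATA3, OVOL1 and the C/EBP factors act as the cells leave the basal layer and build the barrier. GRHL1 controls desmosomal genes, and ELF5 is an ETS factor of epithelial cells known from the mammary gland, the trophoblast and differentiating keratinocytes. SOX4 and SOX11 are related HMG-box factors that recognize short DNA sequences.

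The start regions of the 2 factors that passed the test are shown first, because the deleted genes encode DNA-binding proteins. Each window runs from 250 bases before to 50 bases after a RefSeq transcription start (GRCm38.p6), and capitals mark any match to the SOX core sequences ACAAAG or ACAATG on either strand. The 2 searched sequences do not overlap each other.
Elf5 first start (chr2:103411848-103412147, plus strand): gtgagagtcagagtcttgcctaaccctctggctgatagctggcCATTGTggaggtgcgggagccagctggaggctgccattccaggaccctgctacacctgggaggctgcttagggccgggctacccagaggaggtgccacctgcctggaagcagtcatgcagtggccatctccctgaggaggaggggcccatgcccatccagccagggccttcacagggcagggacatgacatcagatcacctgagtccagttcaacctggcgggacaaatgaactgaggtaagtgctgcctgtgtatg
Elf5 second start (chr2:103423818-103424117, plus strand): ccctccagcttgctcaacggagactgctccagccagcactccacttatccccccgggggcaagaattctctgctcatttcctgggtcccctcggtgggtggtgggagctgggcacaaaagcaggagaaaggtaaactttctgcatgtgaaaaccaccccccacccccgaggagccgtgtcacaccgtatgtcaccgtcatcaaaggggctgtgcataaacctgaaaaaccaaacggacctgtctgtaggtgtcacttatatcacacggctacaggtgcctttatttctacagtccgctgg
Prdm1 (chr10:44458699-44458998, minus strand): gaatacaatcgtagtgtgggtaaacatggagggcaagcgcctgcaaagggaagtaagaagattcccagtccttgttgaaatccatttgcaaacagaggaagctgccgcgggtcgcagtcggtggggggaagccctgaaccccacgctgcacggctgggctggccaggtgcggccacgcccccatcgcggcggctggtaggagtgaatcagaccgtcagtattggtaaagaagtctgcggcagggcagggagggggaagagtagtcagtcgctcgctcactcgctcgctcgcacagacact

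The first Elf5 window held 1 match, ACAATG on the minus strand, beginning 207 bases before the start. The second Elf5 window and the Prdm1 window held none. Of the 9 windows of the 7 factors listed in the promoter table, this was the only match, whereas 28.6% of all 32851 windows held at least 1. A match is a match of letters only, and no binding was measured here.

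Values are log2(knockout/wild type) per array, the fold change is their mean over the 2 arrays, and errors are the SD of the 2 arrays or the 95% interval of the limma fit. Calls needed an absolute log2 fold change over 1.5 together with an adjusted p under 0.05 from limma, by the Benjamini-Hochberg method over all probes. All 9 factors were well above background in all 12 channels, so each was measured in every sample. The lowest signal was 2.53 times its local background, for Prdm1, and the lowest Elf5 signal was 3.55 times. As a check of the genotypes, the dimmer Sox4 probe was at −1.58 in dcKO, with an adjusted p of 0.00223, and at −1.96 in Sox4 cKO, with an adjusted p of 0.0284. The brighter Sox4 probe was at −0.82 (adjusted p = 0.0768) and −0.42 (adjusted p = 0.802) and passed in neither. The 2 Sox11 probes were above background in 0 and 3 of 6 wild-type channels and could not check Sox11. They were at −0.093 and 0.046 in Sox11 cKO, and at −0.28 (adjusted p = 0.517) and −0.72 (adjusted p = 0.196) in dcKO. All 10 marker genes of epidermis, among them Krt5, Krt14, Krt1 and Krt10, were well above background, with mean log2 channel levels between 13.33 and 13.86 in the 12 samples.

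In dcKO 2 of the 9 regulators passed the adjusted p threshold, in opposite directions. Elf5 fell 3.75-fold, and Prdm1 rose 1.95-fold. Over all probes 0.833% passed the adjusted p threshold in dcKO (464 of 55681), 0.309% lower and 0.524% higher. With the fold change threshold added 0.207% were called, and Elf5 was the 1 factor among the 9 that was called. None of the 9 factors passed the adjusted p threshold in either single knockout, where 0.00539% of all probes (Sox4 cKO) and 0% (Sox11 cKO) passed and were called. At an unadjusted threshold of 0.05 in limma, 0 of the 9 passed in Sox4 cKO, against 6.18% of probes. In Sox11 cKO 2 of the 9 did, Elf5 and Prdm1 (adjusted p of 0.7 and 0.706), against 7.05% of probes. In dcKO the same 2 factors did, against 9.89% of probes.

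**Figure D1:**
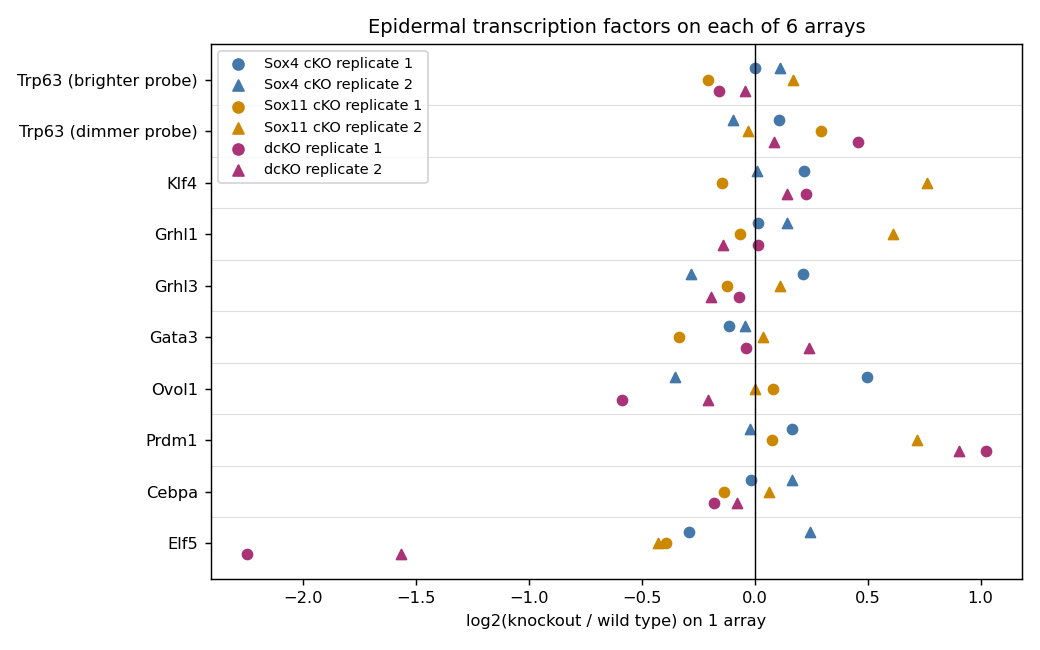
Log2(knockout/wild type) of the 9 transcription factors on each of the 6 arrays (circles replicate 1, triangles replicate 2), with a row per probe. Only the 2 dcKO values of Elf5 (−2.25 and −1.57) lie below −1.5, and the 2 dcKO values of Prdm1 (1.02 and 0.90) are the highest of that gene.

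Elf5 lost signal on both dcKO arrays. Its log2 values were −2.25 and −1.57 in dcKO (replicates 1 and 2), −0.39 and −0.43 in Sox11 cKO, and for Sox4 cKO −0.29 and 0.25. Both dcKO values lay more than 1 log2 unit under the other 4. The mean in dcKO was −1.905 ± 0.48 (SD, n = 2), with a 95% interval of −2.26 to −1.55 and an adjusted p of 0.000965. It ranked 16 among the probes that were lower in dcKO, ordered by fold change, and 51 among all probes, ordered by p.

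The raw signals, which are not normalized between arrays, were also read within each dye. In Cy5 the Elf5 spot read 184.5 in dcKO over a background of 52, against 684, 1144 and 1692 in the 3 wild-type samples, 403.5 in Sox4 cKO and 921.5 in Sox11 cKO. In Cy3 it read 242 in dcKO over a background of 29, against 261.5, 571.5 and 842.5 in the wild types, 550.5 in Sox4 cKO and 702 in Sox11 cKO. The dcKO sample was thus the lowest of its dye in both cases, although in Cy3 it was close to the wild-type littermate of Sox4 cKO replicate 1. In bulk samples, fewer cells of a type and less RNA per cell cannot be told apart.

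The difference of Elf5 between the genotypes was tested, in contrasts that share the dcKO arrays. Elf5 was lower in dcKO than in Sox4 cKO by a log2 difference of −1.88 (95% interval −2.38 to −1.39, adjusted p = 0.0168). In that comparison 0.147% of all probes passed the adjusted p threshold and 0.131% were called, and 6.12% passed unadjusted. Without the replicate block, which here is the dye coefficient, the adjusted p was 0.0627. It was also lost without Sox4 cKO replicate 1 (−1.99, adjusted p = 0.0924) or Sox4 cKO replicate 2 (−1.78, adjusted p = 0.107). Against Sox11 cKO the difference was −1.495 (interval −1.99 to −0.997) with an adjusted p of 0.0545, where 0.163% of probes passed and 0.14% were called. Elf5 and Prdm1 passed there unadjusted, as did 7.21% of probes. This second difference passed when 1 array was left out in 3 cases, both Sox4 cKO arrays (adjusted p = 0.0491 each) and dcKO replicate 2 (−1.71, adjusted p = 0.0254). Against the sum of both single knockouts the departure was −1.47 (interval −2.08 to −0.86, adjusted p = 0.256), where 0.088% of probes passed, and 6.38% unadjusted. Between Sox4 cKO and Sox11 cKO the Elf5 difference was 0.39 (adjusted p = 0.939), and 0.0018% of probes passed, and 5.28% unadjusted.

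The call of Elf5 against the wild type held without any single array, with a log2 fold change of −1.69 without dcKO replicate 1 and −2.12 without dcKO replicate 2. With the log ratio of the scanner software in place of normexp and loess it was −2.12 (adjusted p = 0.284), and under that setting 0 probes of the whole array passed in dcKO in limma, against 5750 at an unadjusted threshold of 0.05.

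Markers of other cells moved with these arrays. The median of 10 dermal fibroblast genes was −1.51 and −1.34 on the dcKO arrays, −2.41 and 0.77 on the Sox4 cKO arrays, and 0.81 and −0.55 on the Sox11 cKO arrays. The dermal median was thus lowest on Sox4 cKO replicate 1, where Elf5 read −0.29. It was next lowest on the 2 dcKO arrays, where Elf5 read −2.25 and −1.57. On these arrays 1 of the 10, Dcn, was above 0, at 0.21 on Sox4 cKO replicate 1 and 0.41 and 0.29 in dcKO. The mean log2 channel level of the 10 ranged from 7.26 to 7.91 in the 2 dcKO samples. It ranged from 7.38 to 8.22 in the single knockouts and from 7.32 to 9.64 in the wild types. The median of 6 periderm keratins, which mark the transient outer layer of embryonic skin, was −1.10 and −1.04 in dcKO and −1.51 and −0.58 in Sox11 cKO, against 0.66 and 0.41 in Sox4 cKO. Within it Krt4, Krt19 and Krt17 passed the adjusted p threshold in dcKO, all 3 lower (−1.497, −1.40 and −1.37). These were 3 of 6 keratins, beside 1.59% of all named genes, and all 6 passed unadjusted in limma, beside 13%. Krt17 departed from the medians of the single knockouts. It read −0.91 and −0.97 on the Sox4 cKO arrays, where the other 5 keratins were above 0. For Sox11 cKO it read −0.0065 and 0.040, and Krt6a was at 0.28 on the second of those arrays. None of the dermal genes passed in limma, and 8 of the 10 did unadjusted, beside 13% of all named genes. The 8 inner root sheath and sebaceous genes had medians of −0.01 and −0.11 in dcKO, with fitted changes from −0.41 (Tchh) to 0.60 (Krt71). In limma 0 of the 8 passed in dcKO and 3 (37.5%) did unadjusted, beside 13% of all named genes. Only 4 of the 8 were above background in at least 6 channels, and Krt25, Krt27 and Awat1 were in none. The part of the dermal and periderm differences in the Elf5 result was not tested.

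By the Euclidean distance of the 6 log2 values, the named genes nearest to Elf5 were Jmjd7 (distance 0.855) and Fap (0.912). Their dcKO log2 fold changes were −1.45 and −1.76. The distance included the dcKO arrays, so falls there follow from how these genes were picked and are not a separate result.

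Prdm1 encodes a zinc-finger repressor of the granular layer that is needed for the last steps of cornification. It was higher on both dcKO arrays, at 1.02 and 0.90, against 0.17 and −0.020 for Sox4 cKO and 0.07 and 0.72 for Sox11 cKO. The dcKO values were the highest 2 of the 6, and the second Sox11 cKO array came next. The mean was 0.96 ± 0.08 (SD, n = 2), with a 95% interval of 0.58 to 1.34, and its adjusted p of 0.042 lay just under the threshold. The size was short of the fold change threshold, so Prdm1 was not called. In Cy5 its spot read 1774.5 in dcKO, against 712.5, 686 and 129 in the wild types, 1225.5 in Sox4 cKO and 330 in Sox11 cKO. In Cy3 it read 806, against 621, 570 and 220.5 in the wild types, 460 in Sox4 cKO and 115 in Sox11 cKO. The dcKO sample was the highest of its dye in both.

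The Prdm1 result was less firm than that of Elf5. It lost the threshold without dcKO replicate 1 (0.79, adjusted p = 0.504) or dcKO replicate 2 (1.14, adjusted p = 0.119), and without the replicate block (adjusted p = 0.0633). It did not pass in the difference from Sox4 cKO (0.89, interval 0.35 to 1.43, adjusted p = 0.53) or from Sox11 cKO (0.57, interval 0.03 to 1.105, adjusted p = 0.686). A rise particular to dcKO was therefore not shown.

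**Figure D2:**
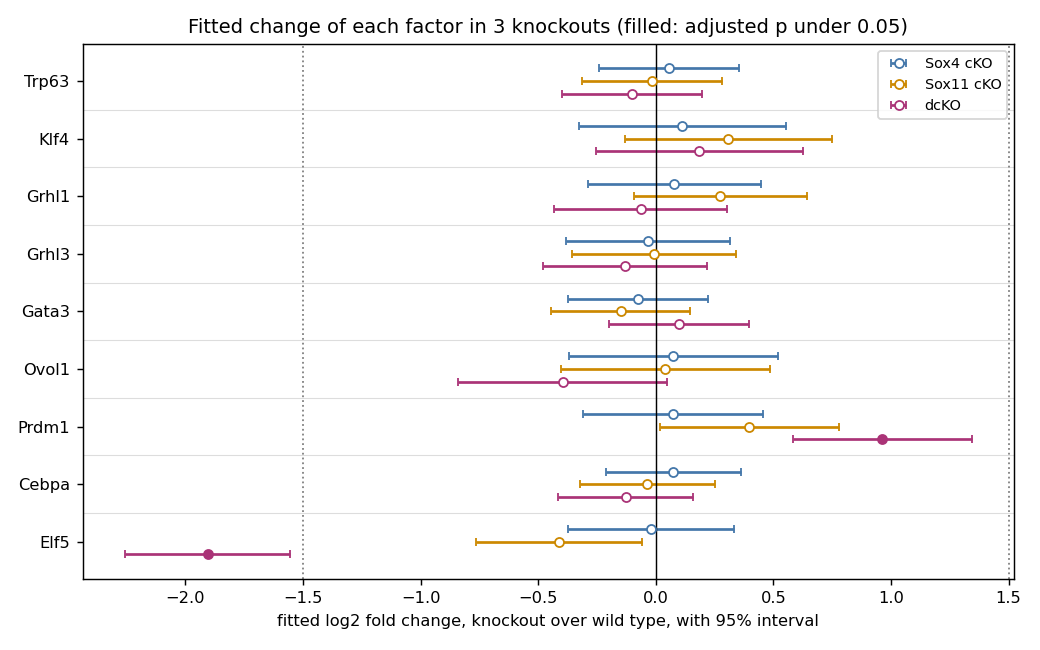
Fitted log2 fold change of each factor in Sox4 cKO, Sox11 cKO and dcKO with its 95% interval, on the brightest probe per gene. Filled points passed an adjusted p of 0.05, and dotted lines mark the fold change threshold of 1.5, which only Elf5 in dcKO passed.

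None of the other 7 factors passed in dcKO, at the adjusted or at the unadjusted threshold in limma. Their fitted changes ran from −0.40 (Ovol1) to 0.18 (Klf4), with adjusted p of 0.56 or higher. The 95% intervals reached at most from −0.84 to 0.62, so a fall of over 1.79-fold or a rise of over 1.54-fold lay outside the interval of each. In Sox4 cKO the 7 ran from −0.077 to 0.11 and in Sox11 cKO from −0.15 to 0.31. Of all 9 factors, 2 were higher and 5 lower on both dcKO arrays, and 2 had mixed signs. Over all genes 25.5% were higher on both dcKO arrays and 28% lower. The median change of the 9 was −0.10 in dcKO, beside −0.01 for all named genes.

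Trp63, which holds keratinocytes in the basal fate, had 2 probes, assigned to different RefSeq transcripts. The brighter one read 0.0027 and 0.11 for Sox4 cKO, −0.21 and 0.17 for Sox11 cKO and −0.16 and −0.042 for dcKO. The dimmer one read 0.11 and −0.096, 0.29 and −0.029, and 0.46 and 0.09 in the same order. In dcKO the probes pointed in different directions, at −0.10 (interval −0.40 to 0.20, adjusted p = 0.867) and 0.27 (interval −0.018 to 0.56, adjusted p = 0.536), and neither passed. Among 15 genes of the p63 program, which include Krt5, Krt14, Perp, Itgb4 and Zfp750, 0 passed in dcKO in limma and 2 (13.3%) did unadjusted, near the 13% of all named genes, with a median of −0.05. They ran from −0.61 (Fermt1, adjusted p = 0.189) to 0.26 (Krt14, adjusted p = 0.583).

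Klf4, a zinc-finger factor needed for the skin barrier, read 0.23 and 0.14 in dcKO and 0.22 and 0.0088 in Sox4 cKO. In Sox11 cKO it read −0.14 and 0.76. Grhl1 was at 0.015 and −0.14 in dcKO, 0.015 and 0.14 for Sox4 cKO, and −0.064 and 0.61 for Sox11 cKO. The second Sox11 cKO array thus stood apart from the other 5 in both genes. Their means in Sox11 cKO, 0.31 for Klf4 (adjusted p = 0.791) and 0.27 for Grhl1 (adjusted p = 0.773), did not pass. Prdm1 showed the same split in Sox11 cKO, and 8 of the 9 factors were above 0 on the second array against 2 of 9 on the first. The median log2 ratio over all probes was −0.0060 on the second array and 0.0035 on the first.

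In Klf4 and Grhl1 the wild-type channel of the second Sox11 cKO array lay apart from the other wild types. Its normalized log2 level of Klf4 was 11.99, while the other 5 wild types lay between 12.93 and 13.41, and its Grhl1 level was 11.57 against 12.16 to 12.33. The knockout channel of that array read 12.76 for Klf4 and 12.18 for Grhl1, close to the 12.78 and 12.09 of the first Sox11 cKO sample. In the Sox4 cKO and dcKO samples the knockout channel read 13.15 to 13.63 for Klf4 and 12.15 to 12.48 for Grhl1. On the second Sox11 cKO array, 28 textbook targets of these factors had a mean wild-type level of 10.6, against 11.25 to 11.67 elsewhere. Their mean knockout level was also lowest on that array, at 11.21 against 11.28 to 11.89. The median log2 ratio of the 28 was 0.52 on that array and 0.10 on the first. Xist passed the background mark in the knockout and the wild-type channel of that array and of the second Sox4 cKO array and in no other, and Y-linked genes in both channels of the other 4, so knockout and wild type were alike in sex on each array. The part of sex or of that wild-type sample in these values was not tested.

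**Figure D3:**
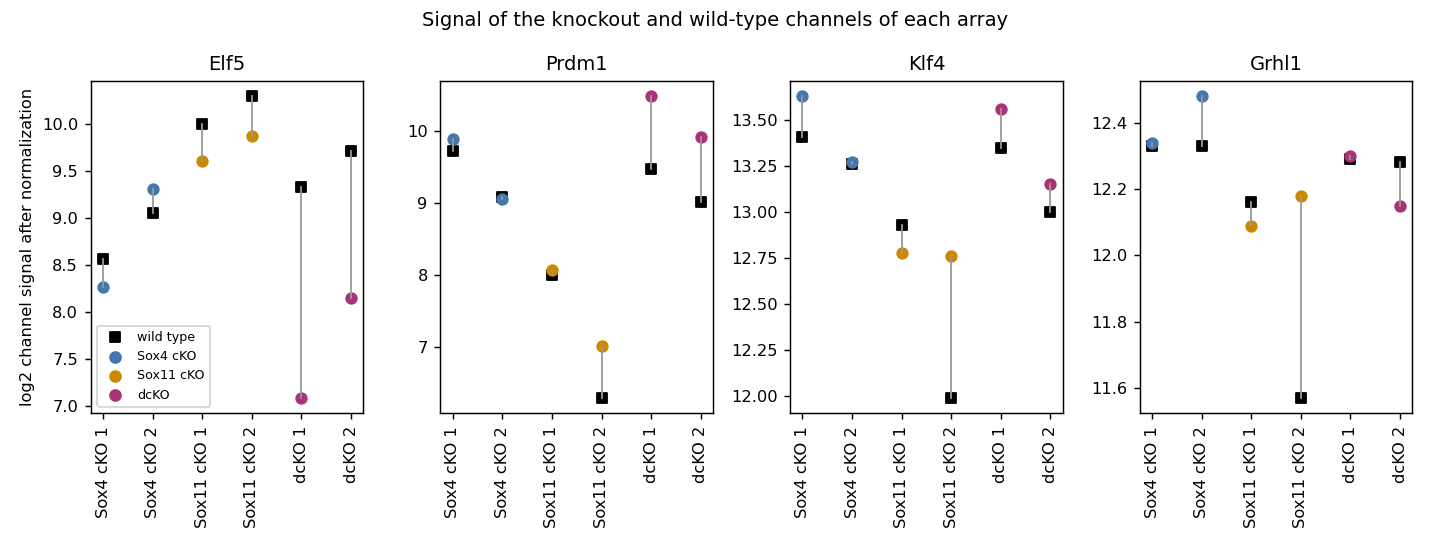
Normalized log2 signal of the knockout channel (circles) and the wild-type channel (squares) on each array for Elf5, Prdm1, Klf4 and Grhl1, with separate vertical scales. The dcKO circles of Elf5 (7.09 and 8.15) lie under all its other points, while on Sox11 cKO replicate 2 the wild-type squares of Klf4 (11.99) and Grhl1 (11.57) lie under all others.

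Grhl3, a grainyhead factor of barrier formation, ran from −0.28 to 0.22 over the 6 arrays and was at −0.13 in dcKO (interval −0.48 to 0.22, adjusted p = 0.849). Gata3, a zinc-finger factor of barrier lipids and of the inner root sheath, ran from −0.34 to 0.24 and was at 0.10 in dcKO (interval −0.20 to 0.40, adjusted p = 0.868). Cebpa, which acts as keratinocytes stop dividing, ran from −0.18 to 0.17 and was at −0.13 in dcKO (interval −0.42 to 0.16, adjusted p = 0.809). These 3 genes held both signs over the 6 arrays.

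Ovol1, a zinc-finger repressor that restrains the growth of basal cells, had the widest interval of the 7. It read −0.59 and −0.21 in dcKO, and both single knockouts lay higher on average, at 0.50 and −0.35 (Sox4 cKO) and 0.08 and 0.0002 (Sox11 cKO). Its dcKO mean of −0.40 (interval −0.84 to 0.05) had an adjusted p of 0.56 in limma. The SD of the 2 arrays was 0.27 in dcKO and 0.60 in Sox4 cKO.

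Among 60 other regulators of epidermal fate and differentiation, 3 passed the adjusted p threshold in dcKO, 2 higher and 1 lower, and none in Sox4 cKO or Sox11 cKO. Their dcKO median was −0.05, and 1.59% of all named genes passed. Unadjusted in limma, 13 of the 60 (21.7%) passed in dcKO, beside 13% of all named genes. Maf, a leucine-zipper factor of late keratinocyte differentiation, rose by 1.68 (1.78 and 1.57 on the 2 arrays, adjusted p = 0.00141). Its Sox4 cKO values were 0.33 and 0.56, and those of Sox11 cKO 0.010 and 0.40. The difference of Maf between dcKO and Sox11 cKO passed (1.47, adjusted p = 0.0449), whereas the difference from Sox4 cKO (1.23, adjusted p = 0.108) and from the sum of both (1.03, adjusted p = 0.608) did not. Mxd1, an antagonist of MYC in differentiating cells, rose by 0.81 (0.99 and 0.64, adjusted p = 0.0442). Pparg, a nuclear receptor of lipid metabolism, fell by 0.79 (−0.91 and −0.68, adjusted p = 0.036). Maf passed without any single array, whereas Pparg and Mxd1 lost the threshold without dcKO replicate 1 (adjusted p = 0.504 and 0.597) or dcKO replicate 2 (adjusted p = 0.232 and 0.135), and Mxd1 also without either Sox11 cKO array (adjusted p = 0.067). Both also lost it without the replicate block (0.0741 and 0.0808).

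The remaining 57 did not pass the adjusted p threshold. They include Grhl2 (−0.0033, adjusted p = 0.997), a relative of Grhl1 and Grhl3, Zfp750 (−0.05, adjusted p = 0.945) and Dlx3 (0.25, adjusted p = 0.606). The ETS relatives of Elf5 among them were Ehf, at 0.44 (adjusted p = 0.442), and Elf3, at −0.33 (adjusted p = 0.44). Over 33 genes of the same families as the 9 factors, 0 passed in dcKO in limma and 5 (15.2%) did unadjusted, near the 13% of all named genes, with changes from −0.515 (Gata2) to 0.44 (Ehf) and a median of −0.07. Of the 33 genes 23 were above background in at least 6 channels, and Gata2 was in 3.

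**Figure D4:**
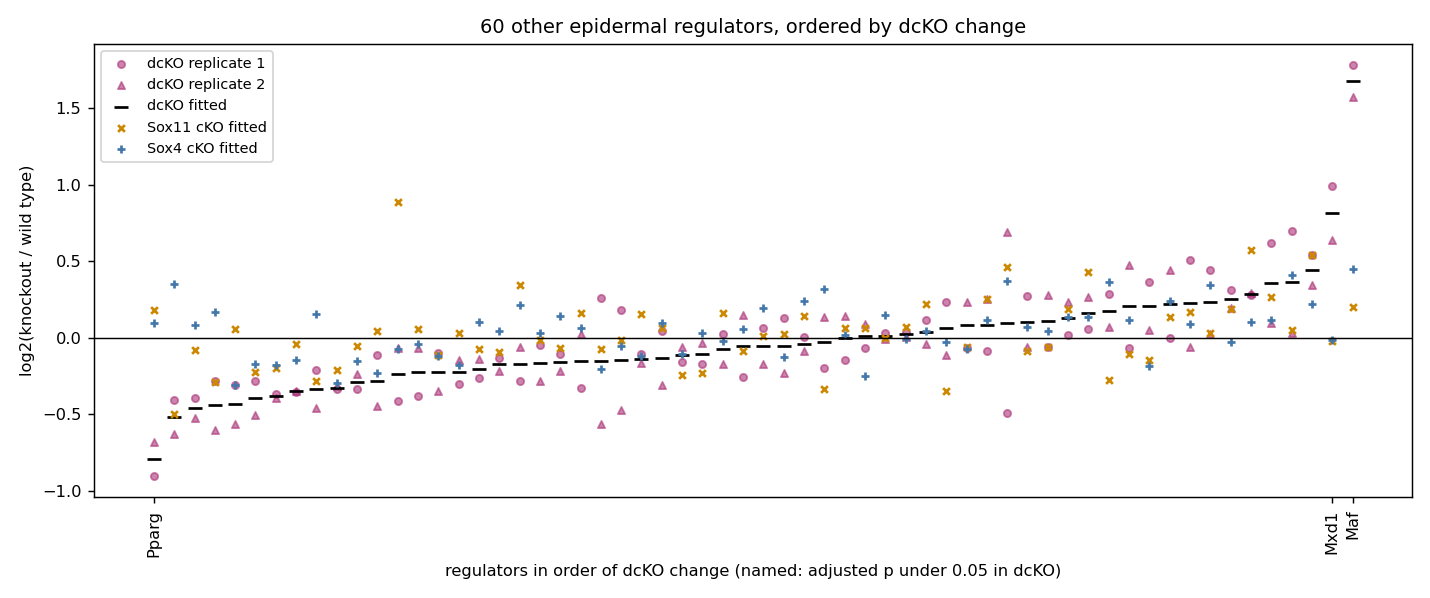
Log2(knockout/wild type) of 60 other epidermal regulators ordered by their fitted dcKO change (short black bars), with both dcKO arrays and the fitted values of the single knockouts, and names under the genes that passed. Pparg (−0.79) lies at the low end and Mxd1 (0.81) and Maf (1.68) at the high end, the 3 that passed the adjusted p threshold in dcKO.

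Of the 28 textbook targets of the 9 factors with a named probe, 2 passed in dcKO, both higher, beside 1.59% of all named genes. Unadjusted, 15 of the 28 (53.6%) passed, beside 13% of all named genes. Their median was 0.33 in dcKO, 0.26 in Sox11 cKO and 0.10 in Sox4 cKO, and the number above 0 was similar in the 3 knockouts, at 22, 23 and 23 of 28. Agpat5, a lipid enzyme regulated by GATA3, rose by 1.16 (0.94 and 1.37, adjusted p = 0.0452), and Abca12, a lipid transporter of the barrier, rose by 0.84 (0.78 and 0.89, adjusted p = 0.0216). Neither passed without dcKO replicate 1 or dcKO replicate 2 (adjusted p from 0.153 to 0.336), and Agpat5 did not pass without the replicate block (0.137). The highest and lowest changes were those of Ivl (involucrin, 1.25, adjusted p = 0.135) and Fermt1 (−0.61, adjusted p = 0.189), which did not pass. Among the rest, Tgm1, a target of GRHL3, was at 0.20 (adjusted p = 0.663) and Dsg1a, a target of GRHL1, at 0.39 (adjusted p = 0.36).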

How the data were processed

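RNA of 6 knockout and 6 wild-type samples was measured on 6 arrays in 2 colors. The authors scanned them with Agilent Feature Extraction 11.0.1.1, and the deposited scanner files hold the median intensity and background of each spot and a log10 ratio of red over green. The deposited series table holds log2 values. Per the study's methods, the authors made them with normexp (offset of 16) and loess in limma and then removed a color effect with ComBat. Set against ratios computed here from the scanner files, signed as knockout over wild type, the table had a slope of 1.00 and r of 0.9999 or higher on every array, so it lacks the color removal. These table values were used here, and the scanner files gave levels and background marks.

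Using R 4.3.3 and limma 3.58.1, a model with 1 coefficient per genotype and 1 dye coefficient was fitted to all 6 arrays over 55681 probes (6.65 prior and 2 residual degrees of freedom). Differences between genotypes were contrasts of this model. Replicate number and dye coincide, so the dye coefficient is also the replicate block. Deviations of same-numbered arrays correlated at 0.259, 0.306 and 0.328 across probes, and the numbers come from the labels. All tests were two-sided and were checked on simulated data. The labels call the replicates biological. Their number limits the precision, and no spot was saturated. Channel levels were log2 signals after loess and Aquantile scaling.

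Probes were named through RefSeq (GRCm38.p6), and a gene with several probes is given by its brightest. Names are given for all 9 factors, for list genes that passed in a genotype, for the highest and lowest change and for the 3 genes nearest to a called factor. Other genes named were chosen after their values were seen, and some results are not reported here. The factors and lists were chosen with earlier results of these data known. Of the list genes 3 had no named probe (Flg, Sprr2a1 and Ahsp). Alternatives changed the background correction, the scaling, the dye term, the probe filter and the arrays.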

Additional observations from a re-analysis of the deposited data

Results flagged for a closer look

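Elf5 differed between dcKO and Sox4 cKO by a log2 value of −1.88 (adjusted p = 0.0168 in limma), a difference between genotypes that passed the test of the contrast itself.

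Among the 6 wild-type samples, that of Sox11 cKO replicate 2 lay far from the others in Klf4 (gap to the nearest of 0.661 of the whole range) and in Grhl1 (0.776), above Dixon's critical value at the 95% level. These were 2 of 10 probes examined, and chance flags about 1 in 20.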

How the results depend on the processing

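The fall of Elf5 in dcKO kept its direction under all 9 alternative settings and without each of the 6 arrays, from −2.12 to −1.69, and passed the adjusted p under all but the scanner software's log ratio (Feature Extraction). The number of the 9 factors called in dcKO, 1 in the reported fit, was 0 with that log ratio. The number passing the adjusted p, 2 in the reported fit, was 0 with that log ratio, and it was 1 with median centring (Prdm1 0.92, adjusted p = 0.0502), 1 without the replicate block, 1 with the dye mean subtracted beforehand (Prdm1 adjusted p = 0.0526), and 1 to 2 when an array was left out. For dcKO against Sox4 cKO, the 1 factor that was called and passed became 0 with the Feature Extraction log ratio and 0 without the replicate block, and 0 to 1 when an array was left out. For dcKO against Sox11 cKO, 0 factors passed in the reported fit, and 1 (Elf5) with an offset of 50 (adjusted p = 0.00317), 1 without background subtraction (0.00499) and 1 with median centring (0.0475), while leaving out an array gave 0 to 1 called and 0 to 1 passing. Against the sum of both single knockouts Elf5 passed with an offset of 50 (count of 1, adjusted p = 0.0208) and without background subtraction (count of 1, adjusted p = 0.0318). The cause of these changes was not tested. The textbook targets that passed in dcKO, 2 in the reported fit, numbered 10 with an offset of 50, 8 without background subtraction, 1 without the replicate block and 0 with the Feature Extraction log ratio or without either dcKO array. The other regulators that passed, 3 in the reported fit, numbered 0 to 5. Over all probes, 1376 and 1105 passed in dcKO under these settings, against 464. None of Elf5, Prdm1, Maf, Mxd1, Pparg, Abca12 and Agpat5 reversed its direction in dcKO against the wild type under these alternatives, which were not run for other genes outside the 9 factors. Slide and scan could not be fitted, since per the file headers all 6 arrays share them.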

Other observations

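On the second Sox11 cKO array several further regulators stood higher in the knockout than on the first. Pou3f1, a POU factor of keratinocytes, read −0.00055 and 1.78 on replicates 1 and 2, and Hopx, a homeodomain cofactor, 0.0075 and 1.14. Neither passed in Sox11 cKO, and these 2 were picked after their values were seen. On the dcKO arrays they lay between −0.41 and 0.29. Of the 60 other regulators, 38 were above 0 on the second Sox11 cKO array and 15 on the first. The median over all probes was near 0 on both, at −0.0060 and 0.0035.

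The wild-type littermates differed among themselves in the level of some factors more than most knockouts differed from their own littermate. Normalized wild-type levels of Prdm1 spanned 3.45 log2 units over the 6 samples, from 6.28 beside Sox11 cKO replicate 2 to 9.73 beside Sox4 cKO replicate 1. The knockout channel was also low on the former array, at 7.002, and high on the latter, at 9.90. Prdm1 was highest in the dcKO samples, at 10.49 and 9.92 beside wild-type levels of 9.47 and 9.01. Ovol1 spanned 2.41 units and was lowest on Sox11 cKO replicate 2 in both channels (9.19 and 9.19). Elf5 spanned 1.74 units and was turned at both ends, with its highest wild-type level (10.3) on that array and its lowest (8.56) beside Sox4 cKO replicate 1. Trp63 (0.53), Cebpa (0.52) and Grhl3 (0.41) spanned the least. These levels depend on scaling between arrays, and litter, dye and array cannot be told apart in them.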
